A study of Mus musculus with 30 samples.

Results

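The sarcomere and Z-disc genes described here are 33 genes that were taken by name from a table of 36558 mouse genes. The 33 were chosen with earlier results of these data known. They encode the non-myosin parts of the sarcomere, the repeating contractile unit of striated muscle, together with proteins that build, brace or break it down. Of the 33 genes, 9 belong to the thin filament, 4 are titin, the thick filament and the M-band, 13 are the Z-disc and its filament links, and 7 are chaperones, assembly factors, a kinase and ubiquitin ligases. All 33 were found in the table and all 33 passed the filter on low counts in heart, whereas 25 passed it in white adipose tissue.

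The libraries came from the heart and white fat of C57BL/6J males given either AAV8-F11 or AAV8-GFP. AAV8 is an adeno-associated virus vector that transduces mainly the liver, F11 encodes coagulation factor XI, a liver-made precursor of a plasma protease, and GFP is the green fluorescent protein of the control vector. All mice, GFP controls included, ate a high-fat diet (HFD) with l-NAME, which blocks nitric oxide synthases, over 7 weeks, and their tissues were taken at 15 weeks of age. Heart was represented by 7 F11 and 6 GFP libraries, and adipose tissue by 8 F11 and 8 GFP libraries. Whether each library is from its own mouse is not stated in the labels. The p-values therefore reflect spread among libraries, some of which may be technical. The labels also name neither the promoter of the vector nor the chamber of the heart or the fat depot.

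In a sarcomere, thin filaments of actin and tropomyosin slide along thick filaments of myosin when calcium binds troponin. Thin filaments are anchored in the Z-disc, where α-actinin crosslinks them, and titin runs from the Z-disc to the M-band in the middle of the sarcomere. Cardiomyocytes fill much of their volume with these structures, which wear and are rebuilt with the help of dedicated chaperones and ubiquitin ligases. White fat holds none of these structures in its adipocytes, although smooth muscle and other cells of fat use some of the same proteins.

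In units of 1e6 estimated counts, the libraries held 28.06 to 33.02 in F11 hearts, 25.75 to 30.59 in GFP hearts, 16.76 to 26.33 in F11 fat and 15.95 to 22.53 in GFP fat. The tissue labels matched their markers: 14 adipocyte markers summed to 18320 to 39210 CPM (counts per 1e6 counts of the library, after TMM scaling) in fat and to 1048 to 1468 CPM in heart. A few libraries stood apart. In heart, transcripts of 8 hepatocyte genes summed to 175.2 CPM in GFP library L2, against 0.324 to 6.55 CPM in the other 12 libraries, and transcripts of 7 blood cell genes summed to 3717 CPM in F11 library L40 and 4250 CPM in GFP library L8, against 563 to 1052 CPM in the other 11. In fat, 8 epididymal genes summed to 7594 CPM in F11 library G-L142, against 0.308 to 19.8 CPM in the other 15, and GFP library G-L140 carried heart muscle transcripts, as described below. In tissue samples of this kind, fewer cells of a type and less RNA per cell cannot be told apart.

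In heart, 29 of the 33 genes had a positive log2 fold change (F11 over GFP) and 4 had a negative one, with a median of 0.14. Over all 14684 genes tested, 47.5% were positive and the median was -0.0056, and over the 3195 genes at least as abundant as the lowest of the 33, 55.7% were positive and the median was 0.0102. The changes were small: the 33 values lay between -0.11 (Trim63) and 0.54 (Myot). Only Tcap, which encodes the titin cap protein telethonin, passed the test, being 1.37-fold higher in F11 hearts. By edgeR's quasi-likelihood test at an adjusted p under 0.05 this is 1 of 33 higher, against 0.518% of all genes tested, and 0 of 33 lower, against 0.354%. At an unadjusted p under 0.05 the counts were 18 of 33 higher, against 6.23% of all genes, and 0 of 33 lower, against 6.24%.

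**Figure D1:**
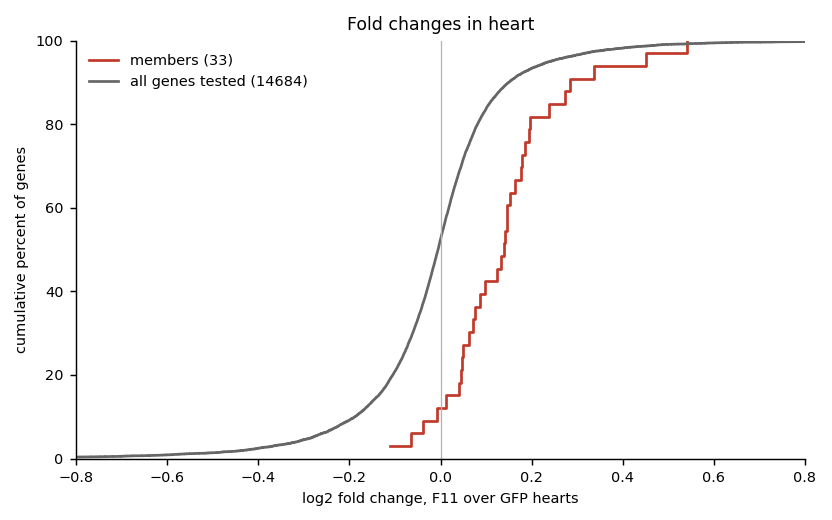
Cumulative percent of genes (vertical axis) by log2 fold change, F11 over GFP hearts (horizontal axis), for the 33 sarcomere and Z-disc genes in red and all 14684 genes tested in grey. The red line lies to the right of the grey one, with its median at 0.14 against -0.0056, and 4 of its 33 genes are left of 0; values beyond 0.8 in either direction are not drawn.

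Other tools called a few more of the 33. DESeq2 called 4 as higher (Tcap, Actn2, Ldb3 and Des), against 1.54% of all genes, and limma voom with quality weights called 2 (Tcap and Actn2), against 0.831%. Tcap was also the only one of the 33 whose 7 F11 libraries all lay above all 6 GFP libraries, against 0.586% of all genes tested, and none had its F11 libraries all below, against 0.484%. The groups of the other 32 genes overlapped. In 18 of the 33 every F11 library lay above the median of the GFP libraries, which held for 6.32% of all genes tested.

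Together the 33 genes took 4.35 ± 0.264% of the TMM-scaled total in F11 hearts (SD, n = 7). In GFP hearts they took 3.89 ± 0.117% (SD, n = 6). This total is the library total times its TMM factor, so these are not shares of the raw counts. On this scale the ranges, 4.07 to 4.80% and 3.75 to 4.11%, overlap through F11 libraries L31 and L40 and GFP library L9. The genes did not move as a block within a group. Among F11 hearts, L35 was the highest library for 12 genes and L36 for 7, while L40 was the highest for 7 and the lowest for 13. Among GFP hearts, L9 was the highest for 14 and L8 the lowest for 12.

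**Figure D2:**
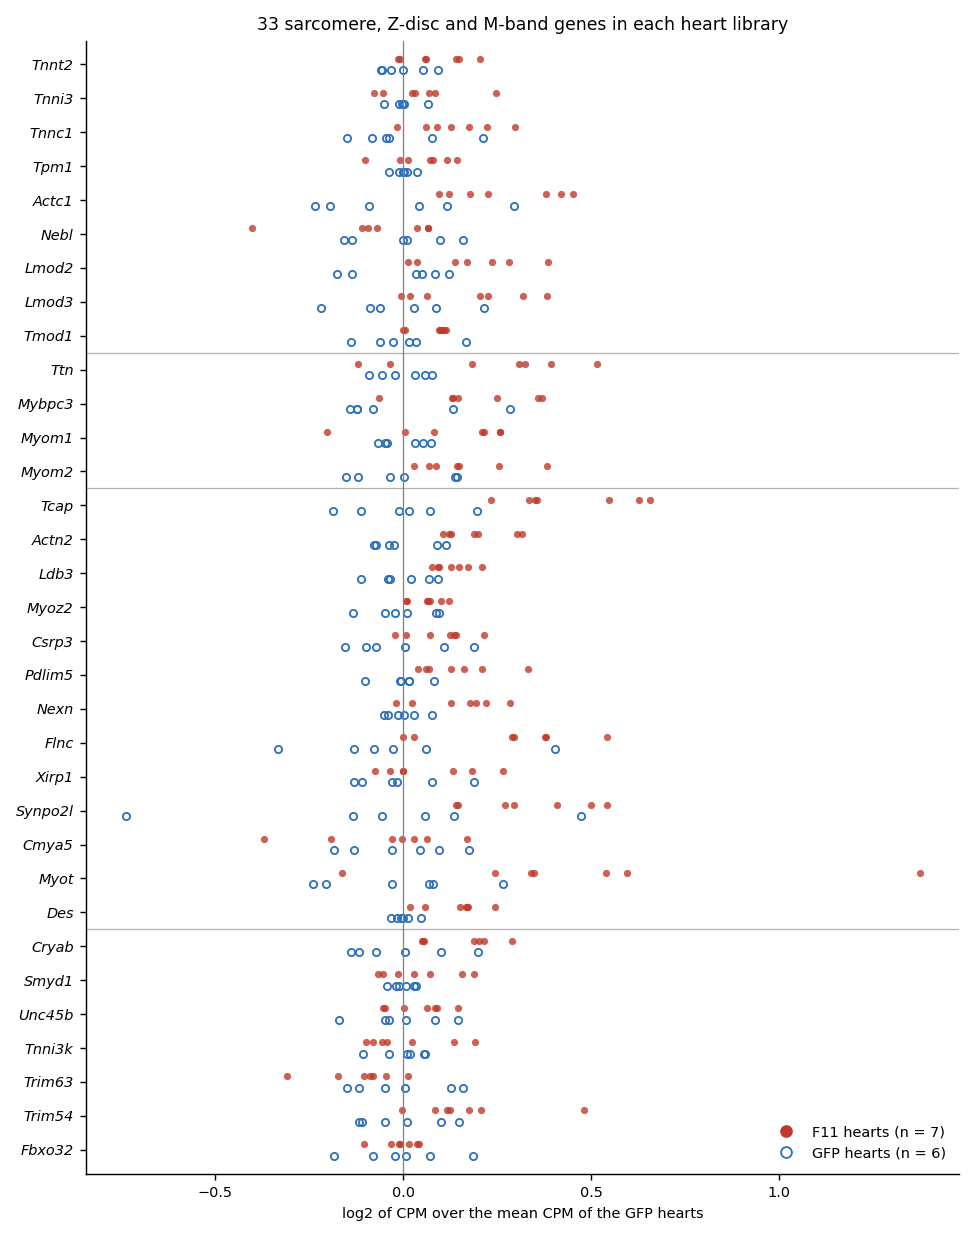
Each heart library as a point, filled red for F11 (n = 7) and open blue for GFP (n = 6), at the log2 of its CPM over the mean CPM of the GFP hearts; genes run down the page in 4 blocks by role, from the thin filament at the top to chaperones and ubiquitin ligases at the bottom. The Tcap points do not overlap between groups, the F11 point of Myot farthest to the right is library L35 at 74.75 CPM, and the F11 point of Nebl farthest to the left is library L40 at 241.3 CPM.

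Promoter windows, from 250 bases before to 50 bases after the annotated start (RefSeq, GRCm38.p6), were searched for 25 of the 33 genes, in 34 windows, on both strands for 4 motifs. Tcap, Cryab, Fbxo32, Lmod3, Myom2, Myot, Nexn and Xirp1 were not searched. Shares are of windows, and a gene with several starts has several windows. The E-box CACGTG, the letters read by the clock factors CLOCK and BMAL1, stood in 8.82% of the 34 windows, those of Actn2, Nebl and Unc45b, a share near the 7.15% of all 32851 windows. The M-CAT motif CATTCC, read by TEAD factors, stood in 32.4%, from 10 genes, against 14.7% of all windows. The CArG box of serum response factor stood in 14.7%, from 4 genes (Actc1, Ldb3, Myom1 and Nebl), against 1.63% of all windows, and the MEF2 box in 17.6%, from 5 genes (Mybpc3, Myoz2, Synpo2l, Tnni3k and Ttn), against 3.19%. These shares carry no test. No 2 of these motifs share the same letters, and a match is a description of the letters only. The windows of 4 genes, picked for their matches and because the values below turn on them, are shown 5′ to 3′ along the gene's own strand. Capitals mark the E-boxes in Actn2 (chr13:12340683-12340982, minus strand), which begin 84 and 48 bases before the start. They mark the CArG box in Actc1 (chr2:114052826-114053125, minus strand), 47 bases before it. In Ttn (chr2:76982498-76982797, minus strand) they mark the MEF2 box, 166 bases before it, and the M-CAT motif, which begins 12 bases into the transcript. In Mybpc3 (chr2:91117894-91118193, plus strand) they mark the MEF2 box, 90 bases before it.
Actn2: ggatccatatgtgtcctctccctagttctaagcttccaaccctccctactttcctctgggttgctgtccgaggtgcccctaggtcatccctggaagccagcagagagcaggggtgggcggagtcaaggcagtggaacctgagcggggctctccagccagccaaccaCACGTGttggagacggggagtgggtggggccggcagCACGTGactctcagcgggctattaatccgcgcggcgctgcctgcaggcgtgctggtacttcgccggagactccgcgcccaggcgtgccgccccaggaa
Actc1: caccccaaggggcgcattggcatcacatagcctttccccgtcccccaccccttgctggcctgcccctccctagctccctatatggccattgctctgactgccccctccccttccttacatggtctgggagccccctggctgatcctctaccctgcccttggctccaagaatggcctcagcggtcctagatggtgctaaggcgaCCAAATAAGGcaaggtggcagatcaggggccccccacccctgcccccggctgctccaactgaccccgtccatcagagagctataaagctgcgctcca
Ttn: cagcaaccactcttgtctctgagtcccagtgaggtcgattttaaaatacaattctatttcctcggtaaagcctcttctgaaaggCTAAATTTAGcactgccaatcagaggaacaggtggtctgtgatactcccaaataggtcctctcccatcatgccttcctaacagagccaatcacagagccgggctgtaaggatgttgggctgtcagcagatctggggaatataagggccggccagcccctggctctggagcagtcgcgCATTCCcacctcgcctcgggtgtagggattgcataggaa
Mybpc3: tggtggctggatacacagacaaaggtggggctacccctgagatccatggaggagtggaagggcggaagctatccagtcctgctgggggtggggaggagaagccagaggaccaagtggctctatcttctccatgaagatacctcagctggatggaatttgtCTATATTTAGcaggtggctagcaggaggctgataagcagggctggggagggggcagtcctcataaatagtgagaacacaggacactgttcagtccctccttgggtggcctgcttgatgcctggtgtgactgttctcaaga

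The Z-disc group held the 4 highest log2 fold changes (Myot, Tcap, Synpo2l and Flnc), and 12 of its 13 genes were positive, with a median log2 fold change of 0.15. Tcap binds the ends of a pair of titin molecules at the edge of the Z-disc. It measured 529, 576 and 710 CPM (lowest, median and highest) in F11 hearts, against 395, 451 and 516 CPM in GFP hearts. Its mean was 616 ± 70.7 CPM in F11 hearts (SD, n = 7) and 450 ± 42.5 CPM in GFP hearts (SD, n = 6), a log2 fold change of 0.45 (SE 0.08, edgeR adjusted p = 0.006015). The lowest F11 library was above the highest GFP library, and with any single library left out the adjusted p of Tcap stayed between 0.003848 and 0.01844 in edgeR. Without L2, L8 and L40, the libraries rich in liver or blood transcripts, the log2 fold change was 0.40 and the edgeR adjusted p 0.0655. Tcap was thus not called in that fit of 10 libraries. Over all genes the same fit called 100 higher and 50 lower of 14820, against 76 and 52 of 14684 in the main fit. Why Tcap lost its call there was not tested.

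Actn2, which encodes the α-actinin of cardiac Z-discs, measured 1494, 1581 and 1730 CPM (lowest, median and highest) in F11 hearts, against 1316, 1358 and 1502 CPM in GFP hearts. All but the lowest F11 library lay above every GFP library, and the log2 fold change was 0.20 (SE 0.05, edgeR adjusted p = 0.0614). Ldb3 encodes cypher, a PDZ-LIM protein that ties α-actinin to signalling kinases. It measured 804, 832 and 881 CPM in F11 hearts and 705, 759 and 813 CPM in GFP hearts, with a log2 fold change of 0.13 (SE 0.04, edgeR adjusted p = 0.144). Des encodes desmin, the intermediate filament that links neighbouring Z-discs. It measured 1275, 1415 and 1493 CPM in F11 hearts and 1232, 1256 and 1301 CPM in GFP hearts, with a log2 fold change of 0.14 (SE 0.04, edgeR adjusted p = 0.107). For Ldb3 and Des, too, 6 of the 7 F11 libraries lay above every GFP library. Without L40 or without L9, edgeR called Actn2 beside Tcap, and without L38 it called Des beside Tcap.

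Pdlim5 encodes another PDZ-LIM protein of the Z-disc, and Nexn the actin-binding protein nexilin, which also sits at the junctions between the cell membrane and the sarcoplasmic reticulum. Pdlim5 measured 369, 392.1 and 452 CPM (lowest, median and highest) in F11 hearts, against 334, 360 and 380 CPM in GFP hearts (log2 0.15, SE 0.05, edgeR adjusted p = 0.1885). Nexn measured 325, 373 and 401 CPM in F11 hearts, against 318, 328 and 347 CPM in GFP hearts (log2 0.15, SE 0.05, edgeR adjusted p = 0.179). Both overlapped between groups, with 4 and 5 of the 7 F11 libraries above every GFP library.

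Of the remaining 7 Z-disc genes, all but Cmya5 were positive. Myot, which encodes the actin bundler myotilin, had the largest log2 fold change of the 33, 0.54 (SE 0.21), and the widest spread. It measured 25.8 to 74.8 CPM in F11 hearts and 24.4 to 34.7 CPM in GFP hearts, and its coefficient of variation was 37.2% in F11 hearts against 13.3% in GFP hearts, since library L35 stood far above the rest. Synpo2l, an actin-associated protein of the Z-disc, varied most among GFP hearts: its mean was 153.5 ± 17.1 CPM in F11 hearts (SD, n = 7) and 121.6 ± 31.3 CPM in GFP hearts (SD, n = 6) (log2 0.34, SE 0.15). Flnc, filamin C, which crosslinks actin around the Z-disc, measured 402 to 585 CPM in F11 hearts and 319 to 531 CPM in GFP hearts (log2 0.28, SE 0.11). Csrp3 (muscle LIM protein), Xirp1 (an actin-binding protein of the intercalated disc, where cardiomyocytes join) and Myoz2 (calsarcin, a calcineurin partner) had log2 fold changes of 0.10, 0.07 and 0.06. Myoz2 varied little, with a coefficient of variation of 2.96% in F11 hearts and 5.97% in GFP hearts. Cmya5, which encodes myospryn, a partner of desmin and α-actinin, had the only negative one, -0.04, and measured 974, 1257 and 1416 CPM in F11 hearts and 1108, 1267 and 1421 CPM in GFP hearts.

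**Figure D3:**
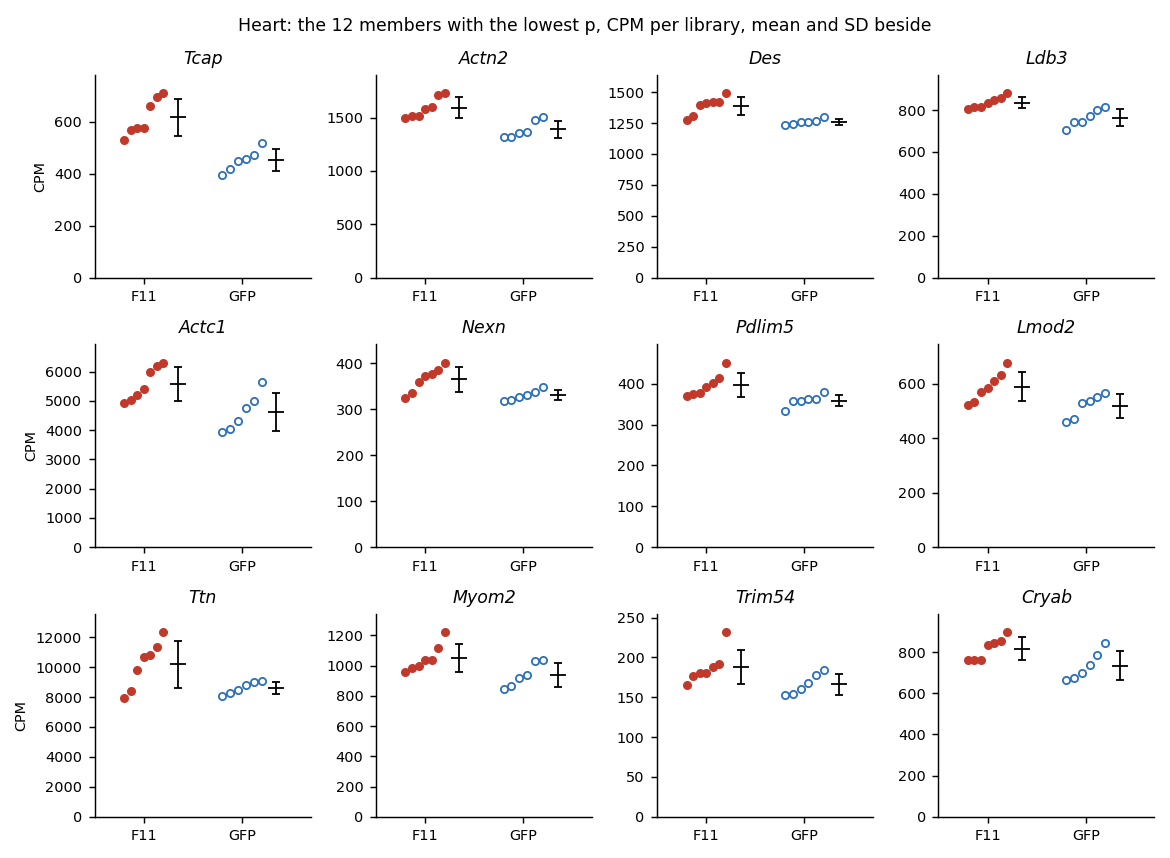
CPM per heart library (points, in order of value) of the 12 sarcomere and Z-disc genes with the lowest edgeR p, F11 at the left in red and GFP at the right in blue, with the mean and SD (n = 7 and 6) as black bars; each axis starts at 0. Only in the panel of Tcap do the groups not overlap, and fitted folds, F11 over GFP, run from 1.096 (Ldb3) to 1.37 (Tcap).

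Of the 4 genes of titin, the thick filament and the M-band, all had a positive log2 fold change, with a median of 0.18, and none passed the test. Ttn encodes titin, the giant spring of the sarcomere. It measured 7931, 10670 and 12340 CPM (lowest, median and highest) in F11 hearts, against 8094, 8657 and 9087 CPM in GFP hearts, with a log2 fold change of 0.24 (SE 0.09, edgeR adjusted p = 0.250). Its F11 libraries were split: 5 lay above every GFP library and 1 below all of them, and the coefficient of variation was 15.5% in F11 hearts against 4.604% in GFP hearts. Mybpc3, myosin binding protein C, which tunes crossbridge cycling, measured 2336 to 3155 CPM in F11 hearts and 2214 to 2973 CPM in GFP hearts (log2 0.19, SE 0.08). Of the M-band crosslinkers, Myom2 measured 956, 1035 and 1222 CPM in F11 hearts, against 844, 928 and 1035 CPM in GFP hearts (log2 0.16, SE 0.06, edgeR adjusted p = 0.278). Myom1 had a log2 fold change of 0.12 (SE 0.06), and its lowest F11 library, at 1166 CPM, lay under every GFP library (1282 to 1412 CPM).

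In the thin filament 8 of the 9 genes were positive, with a median log2 fold change of 0.09, and none passed the test. Actc1, cardiac α-actin, measured 4931, 5398 and 6312 CPM (lowest, median and highest) in F11 hearts, against 3925, 4541 and 5662 CPM in GFP hearts, with a log2 fold change of 0.27 (SE 0.09, edgeR adjusted p = 0.171). Lmod2, leiomodin, which lengthens thin filaments at their pointed ends, measured 523, 583 and 677 CPM in F11 hearts, against 458, 533 and 564 CPM in GFP hearts (log2 0.18, SE 0.06, edgeR adjusted p = 0.212). All 7 F11 libraries of Actc1 and 5 of Lmod2 lay above the GFP median, and the groups overlapped for both.

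The regulatory proteins of the thin filament had smaller log2 fold changes than actin, a difference that was not tested. Among the 3 troponin subunits, Tnnc1, which binds calcium, had a log2 fold change of 0.14 (SE 0.06), Tnnt2, which binds tropomyosin, 0.09 (SE 0.04), and Tnni3, which inhibits crossbridges at rest, 0.05 (SE 0.05). Tropomyosin (Tpm1) had 0.05 (SE 0.04), and its GFP libraries varied least of the 33, with a coefficient of variation of 1.73%, against 5.68% in F11 hearts. The pointed-end proteins Lmod3 and Tmod1, a leiomodin and the cap tropomodulin, had 0.18 (SE 0.07) and 0.07 (SE 0.05). Nebl, nebulette, which links actin to the Z-disc, measured 241, 304 and 334 CPM in F11 hearts, against 286, 320 and 356 CPM in GFP hearts (log2 -0.07, SE 0.07). Its lowest value was library L40.

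The 7 genes of assembly and turnover had the lowest median, 0.04, with 5 positive, and none passed the test. Cryab, αB-crystallin, a chaperone that protects desmin and titin, measured 761, 836 and 897 CPM (lowest, median and highest) in F11 hearts, against 667, 717 and 842 CPM in GFP hearts (log2 0.15, SE 0.06, edgeR adjusted p = 0.280). Trim54, a muscle RING-finger protein that stabilises microtubules and binds titin, measured 166, 181 and 232 CPM in F11 hearts, against 153, 164 and 184 CPM in GFP hearts (log2 0.18, SE 0.07, edgeR adjusted p = 0.279). Its highest value was library L40, the library with the lowest Nebl.

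The ubiquitin ligases of muscle atrophy, Trim63 and Fbxo32, had negative log2 fold changes that did not pass the test. Trim63, MuRF1, which marks myosin and troponin for breakdown, had the most negative log2 fold change of the 33, -0.11 (SE 0.06). It measured 130.1, 151.8 and 162.7 CPM in F11 hearts, against 145.4, 158.9 and 180.1 CPM in GFP hearts, and only 1 of the 7 F11 hearts exceeded the median of the GFP hearts (edgeR adjusted p = 0.4599). Fbxo32, atrogin-1, had -0.01 (SE 0.05), at 94.1 to 104 CPM in F11 hearts and 89.1 to 115 CPM in GFP hearts. The assembly factors Smyd1 and Unc45b and the kinase Tnni3k had 0.05, 0.04 and 0.01, with standard errors of 0.05 each. Trim63 was negative under every setting tried, while Fbxo32, Tnni3k, Cmya5 and others near 0 changed sign under some, as listed in the closing section.

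Per length, the order of the genes spanned from cardiac actin to atrogin-1. On the scale of counts per kilobase of the longest annotated transcript, scaled to 1e6, Actc1 had the highest level (5995 ± 594 in F11 hearts and 5016 ± 773 in GFP hearts, SD, n = 7 and 6). It was followed in F11 hearts by Tnni3 at 3661, Tpm1 at 2368, Tnnc1 at 1849 and Tnnt2 at 1678. Tcap stood eighth, at 1030 ± 131 in F11 hearts and 758 ± 58.1 in GFP hearts. Ttn, with the most counts, stood only 22nd, at 151 ± 21.7 in F11 hearts and 129 ± 10.02 in GFP hearts, because its longest transcript has 106824 bases. Myot (29.9) and Fbxo32 (22.9) came last in F11 hearts. Of the 32 neighbouring pairs in the F11 order, 19 had mean ± SD ranges that overlapped, most of them below the tenth place. The first 21 places held the same genes in the same order in GFP hearts. Across the 33 genes, log10 of the transcript length and the log2 fold change had a Pearson r of -0.12 and a Spearman rho of -0.19, a description over genes that share the same libraries.

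Related genes gave a picture that differed from list to list. Of 8 genes of myosin chains and a myosin kinase, 5 were positive, with a median of 0.07. By edgeR, 3 of the 8 were higher at an unadjusted p under 0.05, against 6.23% of all genes. By the adjusted p 1 was higher, against 0.518% of all genes. This was Myh6, the fast cardiac myosin heavy chain. It measured 28420 ± 1372 CPM in F11 hearts (SD, n = 7) and 23150 ± 1226 CPM in GFP hearts (SD, n = 6). Its log2 fold change was 0.30 (SE 0.04, edgeR adjusted p = 0.001917). Of 36 other genes of the Z-disc, M-band and costamere that were tested, 29 were positive, with a median of 0.08. At an unadjusted p under 0.05, 12 of the 36 were higher, against 6.23% of all genes. By the adjusted p 2 rose, against 0.518% of all genes, and none fell. The 2 were Hspb7, a small heat shock protein that binds filamin C (log2 0.32, edgeR adjusted p = 0.0118), and Vcl, vinculin, which anchors actin at costameres (log2 0.21, edgeR adjusted p = 0.0258). Of 18 regulators of sarcomere genes, among them the MEF2, SRF, GATA4 and TEAD1 factors and RBM20, 11 were positive with a median of 0.03. Of these 18 edgeR called none. At an unadjusted p under 0.05, 1 was higher and 1 lower, against 6.23% and 6.24% of all genes. Of 20 cardiomyocyte markers outside the sarcomere, 13 were positive, with a median of 0.04. Those 20 summed to 31020 to 33190 CPM in F11 hearts and 30680 to 32750 CPM in GFP hearts, with medians of 31510 CPM in F11 hearts and 32190 CPM in GFP hearts. Of 13 skeletal muscle isoforms tested, 9 were positive and edgeR called none. At an unadjusted p under 0.05, 2 of the 13 were higher, against 6.23% of all genes. Pax7, the marker of satellite cells, was at 0 counts in every heart library.

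The summed markers of 7 other cell types or chambers overlapped between the groups in heart. The 8 fibroblast markers summed to 773 to 908 CPM in F11 hearts and 799 to 1009 CPM in GFP hearts, with 1 of 8 positive and none called by edgeR. The 8 macrophage markers summed to 139.4 to 194.2 CPM in F11 hearts and 161.8 to 207.9 CPM in GFP hearts, with 2 of 8 positive and none called. The 9 atrial markers summed to 384 to 3008 CPM in F11 hearts and 152 to 3393 CPM in GFP hearts, with none of 9 positive and none called. All 10 mesothelial markers were negative and none called, at sums of 7.47 to 20.2 CPM in F11 hearts and 12.8 to 30.6 CPM in GFP hearts. The 14 adipocyte markers summed to 1101 to 1468 CPM in F11 hearts and 1048 to 1267 CPM in GFP hearts. Of the 11 that were tested, 4 were positive and 1 was called as higher, Dgat2, a triglyceride synthase (log2 0.27, edgeR adjusted p = 0.02604). The 8 endothelial markers summed to 694.0 to 798.6 CPM in F11 hearts and 664.5 to 853.0 CPM in GFP hearts, with 4 of 8 positive and none called, the nearest being Tek (log2 -0.17, edgeR adjusted p = 0.05138). The 13 smooth muscle and pericyte markers summed to 1214 to 1376 CPM in F11 hearts and 1195 to 1438 CPM in GFP hearts, with 4 of 13 positive and none called. None of these markers was at 0 in every heart library. At an unadjusted p under 0.05, 2 of 8 fibroblast, 3 of 8 macrophage, 0 of 9 atrial, 5 of 10 mesothelial, 5 of 11 adipocyte, 2 of 8 endothelial and 1 of 13 smooth muscle and pericyte markers were lower, against 6.24% of all genes, and 2 adipocyte markers were higher, against 6.23%. Their part in the values of the 33 genes was not tested, apart from the atrial score, with which as a covariate edgeR still called Tcap alone (adjusted p = 0.007926).

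Clock genes separated the groups in heart. Of 12 genes driven by CLOCK and BMAL1, all were positive in F11 hearts and 8 rose, among them Dbp (log2 0.94, edgeR adjusted p = 0.0003965) and Ciart (log2 1.39, edgeR adjusted p = 7.04e-05). Of 5 genes of the opposite phase 3 fell, among them Arntl, which encodes BMAL1 (log2 -1.68, edgeR adjusted p = 0.0001394). Another of the 5 went the other way, being higher at an edgeR unadjusted p under 0.05 but not called. A clock score used only part of these lists. It was the mean log2 CPM of Dbp, Per2, Ciart, Nr1d1, Nr1d2 and Tef minus that of Arntl, Npas2 and Clock, the 3 that fell. The score ran from 2.38 to 3.24 (log2) in F11 hearts and from 0.67 to 1.59 in GFP hearts, without overlap. Clock state and vector therefore cannot be told apart. With this score as a covariate, the log2 fold change of Tcap was 0.28 (edgeR adjusted p = 0.9994), the median of the 33 genes was 0.07, and edgeR called 0 of 14684 genes in all. Tcap is known as a target of CLOCK and BMAL1 in mouse heart, and its promoter was not searched here. Whether the clock has a part in the Tcap difference was not tested, and these groups cannot show it. Of 11 glucocorticoid targets and atrophy genes, 8 were positive, with a median log2 fold change of 0.28, and 6 were higher at an unadjusted p under 0.05, against 6.23% of all genes. By the adjusted p 1 rose, Zbtb16, a transcription factor induced by glucocorticoids (log2 1.42, edgeR adjusted p = 0.0161).

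In white adipose tissue most of the 33 genes were present at trace levels, with the exception of GFP library G-L140. In 12 of the 33, the median of the 14 fat libraries other than G-L140 and G-L138 was at least 0.5% of the heart level. The highest medians there were those of Cryab (140.6 CPM), Pdlim5 (119.7 CPM) and Tpm1 (115.1 CPM). Together the 33 genes took 0.0559 ± 0.00445% of the TMM-scaled total in F11 fat (SD, n = 8). They took 0.728% of it in G-L140 and 0.0581 ± 0.00614% in the other GFP libraries (SD, n = 7). Every one of the 33 was highest in G-L140. Of the remaining 15 libraries, GFP library G-L138 was the highest for 17 genes, and F11 library G-L142, the one with epididymal transcripts, for 4.

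**Figure D4:**
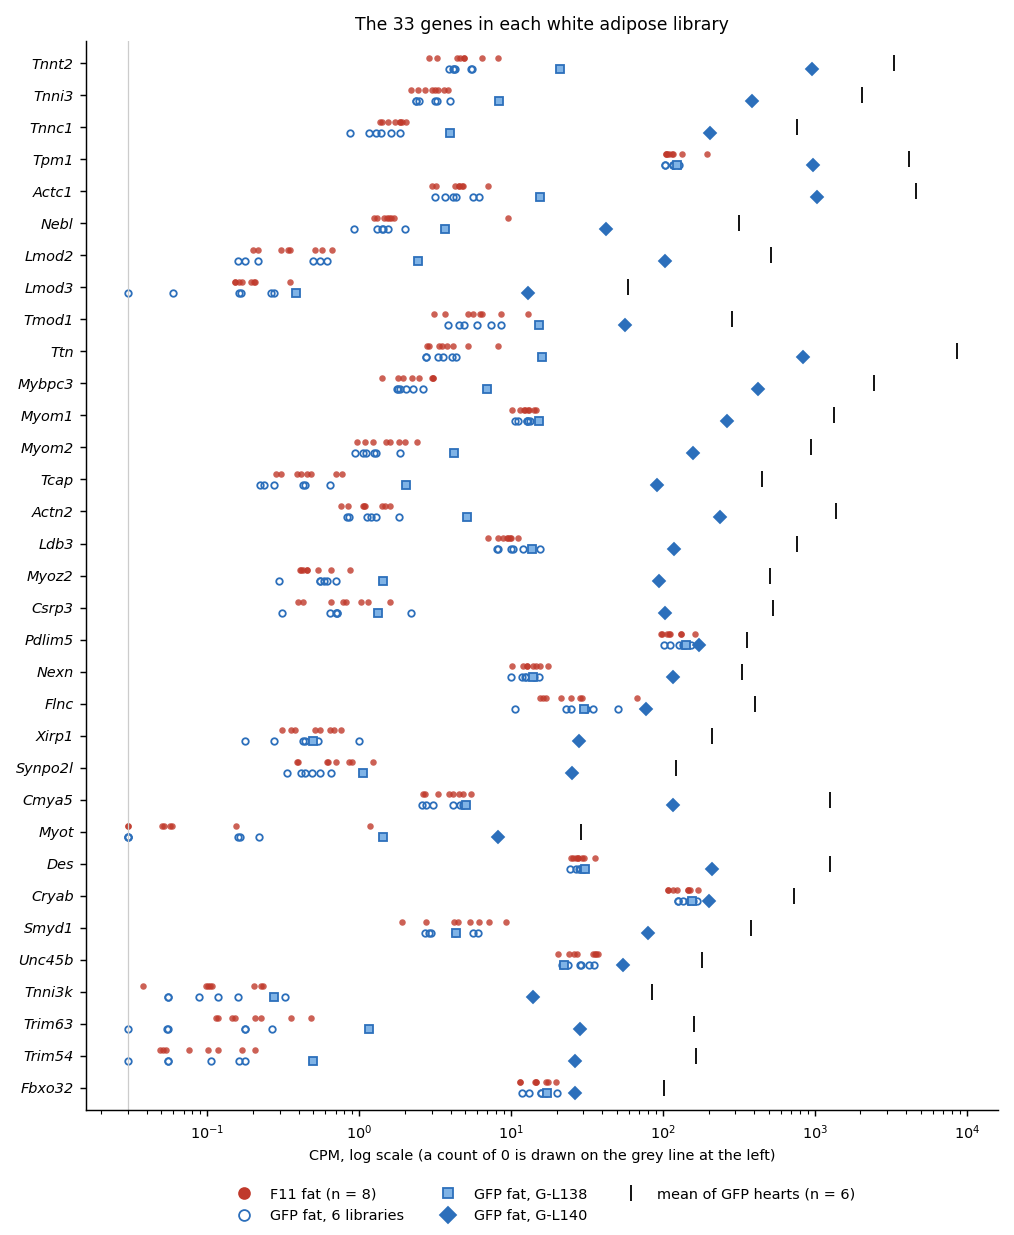
CPM of the 33 genes in each white adipose library, on a log axis, with F11 libraries as red points above GFP libraries in blue; the square is GFP library G-L138, the diamond GFP library G-L140, and the black tick the mean of the GFP hearts (n = 6). G-L140 is to the right of every other fat library in all 33 rows, and in the other libraries Pdlim5, Cryab, Unc45b and Fbxo32 lie closest to their heart tick.

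The difference between F11 and GFP fat rested on that 1 library. By edgeR, 0 of the 25 genes tested passed at an adjusted p under 0.05, against 0.0% of all 15229 genes, and 14 of 25 were lower at an unadjusted p under 0.05, against 1.64% of all genes. DESeq2 and limma voom called 0 of the 25 as well, and at an unadjusted p under 0.05 each counted 0. The median log2 fold change was -1.80, with 0 of 25 positive. Without G-L140 it was -0.10, with 8 of 25 positive, edgeR called 0 of 25, against 0.0% of all 15343 genes, and none of the 25 had an unadjusted p under 0.05 in either direction, against 5.79% of all genes. Without that library DESeq2 and voom also called 0, with 0 and 1 at an unadjusted p under 0.05.

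Actc1 and Actn2 show how far 1 library set the difference. Actc1 measured 3.04, 4.56 and 7.02 CPM (lowest, median and highest) in F11 fat. It measured 1030 CPM in G-L140 and 3.18, 4.38 and 15.6 CPM in the other 7 GFP libraries, the highest being G-L138. Its log2 fold change was -4.88 (SE 1.38, edgeR adjusted p = 0.939) with G-L140 and -0.43 (SE 0.31, edgeR adjusted p = 0.836) without it. Actn2 measured 0.761, 1.09 and 1.60 CPM in F11 fat, 239 CPM in G-L140 and 0.836, 1.19 and 5.15 CPM in the other 7 GFP libraries. For both genes F11 fat and GFP fat overlapped once G-L140 was set aside.

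In G-L140 the 6 genes with the most counts were Actc1 (1030 CPM), Tpm1 (976.8), Tnnt2 (953), Ttn (833.5), Mybpc3 (425.2) and Tnni3 (385.5). In F11 fat, Tpm1 measured 104 to 195 CPM, Tnnt2 2.88 to 8.18, Ttn 2.78 to 8.18, Mybpc3 1.41 to 3.08 and Tnni3 2.20 to 3.86 CPM. In the other 7 GFP libraries, Tpm1 measured 103 to 127 CPM, Tnnt2 3.89 to 20.9, Ttn 2.76 to 16.1, Mybpc3 1.77 to 6.96 and Tnni3 2.37 to 8.39 CPM. G-L140 was thus above every other fat library by a wide margin for all 6, and F11 fat and the other GFP fat overlapped.

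The excess in G-L140 took in all 33 genes. Taken above the median of the 14 fat libraries other than G-L140 and G-L138, and set against the mean of the GFP hearts, it amounted to 8.19% (Cryab) to 31.5% (Nexn) of the heart level, with a median of 17.6% over the 33 genes. Myh6, at 4128 CPM in G-L140 and a median of 16.8 CPM in the 14 libraries, had an excess of 17.8%. Of 9 atrial markers, G-L140 lay above all 14 libraries for 8 and below all 14 for 1. The excess was 20.6% for Nppa, 13.1% for Myl7 and 33.3% for Bmp10. The 1 below was Gja5, at 14.6 CPM in G-L140 and 16.9 to 26.6 CPM in the 14 libraries. Of 25 skeletal muscle isoforms, G-L140 lay above all 14 libraries for 5, below all 14 for 3 (Tpm3, Pvalb and Ryr1) and within their range for 17. The 5 were Ckm (178.3 CPM in G-L140 and a median of 0.762 CPM in the 14 libraries), Acta1 (88.9 and 15.3 CPM), Myl1 (48.3 and 25.5 CPM), Mybpc2 (6.34 and 0.487 CPM) and Actn3 (2.43 and 0.870 CPM). In GFP hearts, Ckm averaged 1154 CPM, Acta1 220.5, Myl1 27.4, Mybpc2 14.2 and Actn3 0.258 CPM. Among the 17, Myh4, Myoz1, Myog and Pax7 had 0 counts in G-L140, which allows up to 0.202 CPM each. The 20 cardiomyocyte markers outside the sarcomere summed to 5454 CPM in G-L140, against 312 to 674 CPM in F11 fat and 331 to 646 CPM in the other GFP fat. Adipocyte markers summed to 39210 CPM in G-L140, against 18320 to 38330 CPM in F11 fat and 22670 to 36740 CPM in the other GFP fat. This sum hid opposite moves. G-L140 lay above all 14 libraries for 6 adipocyte markers, below all 14 for 2 (Lep and Dgat2) and within their range for 6. Lep measured 845.4 CPM in G-L140 and a median of 3870 CPM in the 14 libraries, and Cfd 3577 and 414.6 CPM.

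Longer genes had the smaller shares. The 10 genes of at least 5000 bases had a median excess of 13.1% of the heart level, and the 23 shorter ones 19.2%, a boundary chosen after the values were seen. Ttn (9.62%) and Cmya5 (8.94%) were among the lowest and Tnnc1 (26.5%), Tnnt2 (28.5%) and Nexn (31.5%) among the highest, while Cryab, which is short, was the lowest of all. Across the 33 genes, log10 of the length and the excess had a Pearson r of -0.50 and a Spearman rho of -0.57, a description over genes of 1 library.

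**Figure D5:**
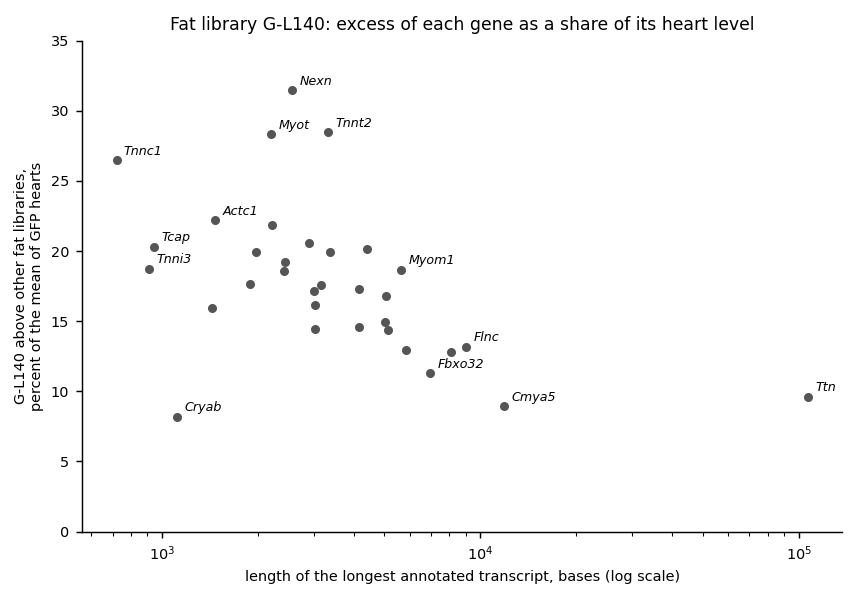
Each of the 33 genes by the length of its longest annotated transcript (horizontal, log scale) and by its excess in GFP fat library G-L140 over the median of 14 other fat libraries, as percent of the mean of the GFP hearts (vertical). Nexn is the highest point at 31.5%, Ttn the one farthest to the right at 9.62%, and Cryab (8.19%) lies apart among the short genes.

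Outside G-L140 and G-L138 the genes split by how much fat carried. In 21 of the 33 the median of the 14 libraries was under 0.5% of the mean of the GFP hearts, from 0.041% (Ttn) to 0.48% (Synpo2l), and in 12 it was at or above it, another boundary set after seeing the values. The cardiac forms of actin (Actc1, 0.0966%), troponin T (Tnnt2, 0.136%), troponin I (Tnni3, 0.152%), α-actinin (Actn2, 0.0801%) and Tcap (0.0935%) were all on the trace side. G-L138 was the highest of the other 15 libraries for 15 of those 21 genes, with a median excess of 0.291% of the heart level.

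Several genes had a level of their own in fat. Pdlim5 measured 96.73, 110.5 and 162.5 CPM (lowest, median and highest) in F11 fat, against 101.3, 136.6 and 153.5 CPM in GFP fat without G-L140, and its median in the 14 libraries was 33.4% of the heart level. Cryab, a general stress chaperone, measured 107.6 to 170.6 CPM in F11 fat, with a mean of 133.9 ± 22.9 CPM (SD, n = 8), against 125.9 to 168.9 CPM in GFP fat without G-L140, at 19.1% of heart. Tpm1, whose transcripts also serve smooth muscle and other cells, measured 104, 112 and 195 CPM in F11 fat, against 103, 117 and 127 CPM in GFP fat without G-L140. The highest Tpm1 value was F11 library G-L142, and for all 3 genes the groups overlapped.

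Unc45b, a myosin chaperone of striated muscle, was in this group as well: it measured 20.29, 31.03 and 37.46 CPM in F11 fat, against 21.56, 28.41 and 35.28 CPM in GFP fat without G-L140, at 15.8% of heart. Fbxo32 measured 11.4 to 19.9 CPM in F11 fat and 11.9 to 20.2 CPM in GFP fat without G-L140, at 15.0% of heart. Des measured 24.7, 27.6 and 35.8 CPM in F11 fat, against 24.5, 28.3 and 30.5 CPM in GFP fat without G-L140. Desmin is also made by smooth muscle and pericytes, of which 13 other markers summed to 1474 to 2180 CPM in F11 fat and 1440 to 1937 CPM in GFP fat without G-L140. Flnc measured 15.5, 23.2 and 67.7 CPM in F11 fat, against 10.6, 30.4 and 50.8 CPM in GFP fat without G-L140. Of Pdlim5, Cryab, Tpm1, Unc45b, Des and Flnc none differed between F11 and GFP fat beyond the spread, with log2 fold changes without G-L140 from -0.14 (Pdlim5) to 0.13 (Unc45b) and edgeR adjusted p-values from 0.847 to 0.991. With all libraries, the test in fat was less sensitive than in heart: in simulated data edgeR recovered 42% of genes changed 1.5-fold in fat, against 74% in heart. The fat simulation took its spread from all fat libraries, G-L140 included, and the fit without G-L140 was not simulated.

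A few counts of 0 mark the floor in fat. Myot had 0 counts in 2 F11 and 3 GFP libraries, which allows up to 0.114 to 0.178 CPM there, and it measured at most 1.18 CPM in F11 fat (library G-L142) and 1.44 CPM in GFP fat without G-L140 (library G-L138). Lmod3, Trim63 and Trim54 had 0 counts in 1 GFP library each. The filter on low counts left these genes out of the test, together with Lmod2, Tcap, Xirp1 and Tnni3k. Whether they differed between F11 and GFP fat was therefore not tested in the main fit. With no filter and G-L140 included, edgeR tested all 33 and called 0 at an adjusted p under 0.05. It also called 0 of all 26593 genes there.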

How the data were processed

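Total RNA was made into libraries with a Nugen mRNA kit and read on a NovaSeq instrument, per the labels' protocols. The deposited table holds the authors' estimated counts, 1 per gene and library, not scaled for depth. The submitters' processing notes name kallisto 0.46 and the build GRCm38.p6. Annotation release, transcript-to-gene summing and strand setting: not given in the sources used here. Of the values 30.4% were not whole (tolerance 0.001), since pseudoalignment divides reads shared between similar transcripts, so genes of families such as actins and tropomyosins, and overlapping genes, can borrow counts from each other. The labels name 30 libraries, of which the table held 29, and L10, a GFP heart, was not analysed here. No library repeated another: pairs within a group gave a chi-square of at least 3.36 per degree of freedom.

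Counts were rounded and tested in each tissue with edgeR 4.0.16 in R 4.3.3 (filterByExpr, TMM, robust quasi-likelihood test, two-sided, Benjamini-Hochberg over all genes tested, adjusted p under 0.05). Fold changes are F11 over GFP, and each SE is the size of the log2 fold change divided by the root of its F statistic. CPM are unrounded counts per 1e6 of the library total times its TMM factor. Levels between genes used the longest transcript in GENCODE M21. The 33 genes, the 18 lists (233 entries, all found) and the tests were chosen with earlier results of these data known. Values are given for the 12 genes with the lowest heart p, the 3 most negative, and in fat the 6 highest outside G-L140, the 2 with the lowest p and the 6 highest in G-L140. Of other lists up to 4 called genes, or else the 2 with the lowest p, could be named, and further genes in the text, such as skeletal muscle genes, atrial genes and Fbxo32 in fat, were chosen after their values were seen. The result for a marker gene is not reported here.

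The fits were tested on simulated data: at true folds of 1.25, 1.5, 2 and 4 the heart fit (14568 genes) recovered 50, 74, 84 and 98% and the fat fit (15106 genes) 10, 42, 74 and 94%. Of the calls in simulated data, 11 of 164 in heart and 5 of 115 in fat were genes left unchanged. Limits at 0 counts use 3 counts and cover counting error only. Alternatives were DESeq2 1.42.0, limma 3.58.1 voom with quality weights, other size factors and filters, a fit over both tissues, atrial and clock scores as covariates, a threshold of 0.1 and leaving out each library. Fits without L2, L8 and L40 or without G-L138, G-L140 and G-L142, and both other tools without G-L140, were chosen after seeing the data.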

Additional observations from a re-analysis of the deposited data

Results flagged for a closer look

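In groups of 4 to 10 libraries, the 132 combinations of gene and group were searched for a highest or lowest library that lay far from the others, and chance flags about 1 in 20 such groups. In F11 hearts this picked the low Nebl value (241.3 CPM) and the high Trim54 value (231.8 CPM) of library L40, and the high Myot value of library L35 (74.75 CPM).

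In F11 fat it picked Tpm1 (194.9 CPM), Nebl (9.551 CPM), Ttn (8.179 CPM) and Myot (1.184 CPM) in library G-L142, the one with epididymal transcripts. It also picked Actc1 in G-L147 (7.022 CPM), Lmod3 in G-L143 (0.3522 CPM) and Flnc in G-L148 (67.68 CPM).

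In GFP fat it picked 29 of the 33 genes, all of them in library G-L140. Of the thin filament these were Actc1 (1030 CPM), Tpm1 (976.8), Tnnt2 (953), Tnni3 (385.5), Tnnc1 (204.4), Lmod2 (103.8), Tmod1 (55.98), Nebl (42.32) and Lmod3 (13.01 CPM). Of titin, the thick filament and the M-band they were Ttn (833.5 CPM), Mybpc3 (425.2), Myom1 (263.6) and Myom2 (158.9 CPM). Of the Z-disc they were Actn2 (239.2 CPM), Des (209.6), Ldb3 (119.1), Nexn (116.6), Cmya5 (116.6), Csrp3 (103.3), Myoz2 (94.88), Tcap (91.89), Xirp1 (27.84), Synpo2l (25.07) and Myot (8.225 CPM). Of the assembly and turnover genes they were Smyd1 (79.89 CPM), Unc45b (54.94), Trim63 (28.58), Trim54 (26.56) and Tnni3k (13.89 CPM). The 4 genes not picked there, Pdlim5, Cryab, Flnc and Fbxo32, had medians of 6.18 to 33.4% of their heart level in the other fat libraries.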

How the results depend on the processing

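No paired analysis was possible because the replicate numbers are library numbers and no 2 groups share one. In heart, the count of called genes was 1 and became 4 with DESeq2, 2 with limma voom, 2 at an adjusted p under 0.1, 1 to 2 with a library left out, and 0 without L2, L8 and L40, with both tissues in one fit (Tcap log2 0.45, adjusted p = 1.0, a fit whose shared spread is that of both tissues) or with the clock score; other size factors, other filters and the atrial score kept it at 1. The heart median was 0.0703 with the clock score. With that score Tnni3 (-0.0272), Tpm1 (-0.0180), Cmya5 (0.0775), Smyd1 (-0.0751) and Tnni3k (-0.1119) changed sign, as did Tnni3k with library totals only (-0.0139) and Fbxo32 with voom (0.0134) and without L2, L8 and L40 (0.0540). With a library left out, Cmya5 ran from -0.0763 to 0.0115, Tnni3k from -0.0186 to 0.0327 and Fbxo32 from -0.0429 to 0.0337.

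In fat, no setting called any of the genes tested, and the median of -1.80 ran from -2.1829 to -0.1022 with a library left out, the upper end without G-L140. It was -0.1812 with DESeq2, -0.1309 with voom, -2.8015 in one fit, -2.5902 at a mean of at least 1 CPM, -2.8538 with no filter and 0.0440 without G-L138, G-L140 and G-L142. Without those 3 libraries Tnni3 (0.0405), Tnnc1 (0.3672), Actc1 (0.0156), Nebl (0.0607), Ttn (0.0778), Mybpc3 (0.2376), Myom1 (0.0475), Myom2 (0.2091), Csrp3 (0.0763), Nexn (0.0781), Synpo2l (0.4339), Cmya5 (0.0988), Smyd1 (0.4317) and Unc45b (0.1291) turned positive. With DESeq2 Tnnc1 (0.0025), Tpm1 (0.0951), Nexn (0.0803), Synpo2l (0.3580), Cmya5 (0.0166), Des (0.0082) and Smyd1 (0.3109) did, and with voom Csrp3 (0.1178), Nexn (0.0270), Synpo2l (0.0505), Smyd1 (0.1916) and Unc45b (0.1908). With a library left out, the highest value always being that without G-L140, Tpm1 ran from -0.9832 to 0.0882, Nebl from -2.1822 to 0.4939, Nexn from -1.0346 to 0.0816, Synpo2l from -2.4871 to 0.3588, Cmya5 from -2.3504 to 0.0221, Des from -0.9422 to 0.0047, Smyd1 from -1.5562 to 0.3247 and Unc45b from -0.0972 to 0.1308. Apart from the construction of these fits, the cause of these shifts was not tested.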
